A study of Mus musculus with 12 samples.

Results

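The intestinal genes for cholesterol transport and for the liver X receptors (LXR) were followed in murine jejunal enteroids that lacked HDAC1 or HDAC2, 2 histone deacetylases. Members were chosen by gene symbol as *Abcg5*, *Abcg8*, *Abca1*, *Npc1l1*, *Soat2*, *Scarb1*, *Nr1h3*, *Nr1h2* and *Mylip*. They were chosen with earlier results of these data known, so members set beside all genes are a description only. All 9 were listed, out of 18929 genes listed in either deposited table. Gene counts came from 12 RNA-Seq libraries of enteroids (epithelial organoids grown from crypts in Matrigel) cultured for 5 days in medium with EGF, Noggin and R-spondin, with 4 libraries each from control, Hdac1-deficient and Hdac2-deficient cultures. Mice carried floxed *Hdac1* or *Hdac2* alleles and villin-Cre, a transgene that drives recombination in intestinal epithelial cells, on a mixed C57BL/6J, 129SV and CD1 background. The controls are described in the study both as wild-type and as villin-Cre, and the age and sex of the mice were not given in the sources used here. GEO's labels give the mutants as HDAC1-/- and HDAC2-/-. Per the methods, a single mouse per genotype gave the crypts. The p-values therefore measure the spread among 4 libraries that may not be separate mice, and an effect of genotype cannot be told apart from one of the mouse or its enteroid line.

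As background, enterocytes take up sterols from the lumen through NPC1L1 and return surplus sterol through the ABCG5/ABCG8 heterodimer. Cholesterol that stays in the cell is esterified by SOAT2 for chylomicrons, or leaves across the basolateral membrane through ABCA1. LXRα (*Nr1h3*) and LXRβ (*Nr1h2*) are nuclear receptors for oxysterols that bind DNA with the retinoid X receptors, and *Abca1*, *Abcg5*, *Abcg8* and *Mylip* are among their known target genes.

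Depth lay between 20693200 and 30658628 counts per library, and 3 counts, taken as the floor of detection, equalled 0.0972 to 0.145 CPM (counts scaled to library size); this floor covers counting error only. *Hdac1* was at 3.37 to 5.09 CPM in Hdac1-deficient and 87.5 to 94.4 CPM in control libraries. *Hdac2* was at 73.2 to 78.8 CPM in Hdac2-deficient and 131.6 to 141.1 CPM in control libraries, so its transcript was lowered but still counted. The epithelial markers (*Epcam*, *Cdh1*, *Krt8*, *Krt18*, *Krt20* and *Vil1*) summed to 4797 to 4988 CPM in control, 5114 to 5224 CPM with Hdac1 deficiency and 6085 to 6281 CPM with Hdac2 deficiency.

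Upstream sequence is shown for the 3 members with the largest increases in Hdac1-deficient enteroids, since *Abcg5* and *Abcg8* start back to back from 1 short spacer and *Abca1* is a known LXR target. The sequences come from the RefSeq promoter windows of GRCm38.p6 (250 bases before to 50 bases after each start), in which 7 of the 9 members had an entry, *Soat2* and *Scarb1* having none. The first is the 109 bases between the *Abcg5* and *Abcg8* starts, chr17:84683012-84683120, written on the plus strand (the strand of *Abcg8*), with capitals at the 2 places where the GATA-factor site AGATAA lies on the minus strand. The second is the 250 bases before the *Abca1* start, chr4:53159896-53160145, written on the minus strand (the strand of *Abca1*), with capitals at an E-box, CACGTG, and at a DR4 match.
Abcg5-Abcg8 spacer: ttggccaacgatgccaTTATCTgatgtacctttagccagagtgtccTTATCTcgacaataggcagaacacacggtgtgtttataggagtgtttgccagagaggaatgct
Abca1 upstream: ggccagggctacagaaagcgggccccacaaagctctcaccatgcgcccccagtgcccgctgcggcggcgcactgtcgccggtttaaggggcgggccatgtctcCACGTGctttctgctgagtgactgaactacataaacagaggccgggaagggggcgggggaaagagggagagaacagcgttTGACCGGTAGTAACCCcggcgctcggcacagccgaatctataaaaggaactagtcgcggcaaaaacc

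The motifs below were searched on both strands of the promoter windows. The LXR element DR4, which is 2 copies of AGGTCA with 4 bases between them and was allowed 3 mismatches, matched only the *Abca1* window among the members, with 3 mismatches, and its match began 67 bases before the start. A DR4 match of that laxity was present in 21.9% of the 32851 RefSeq windows. The E-box CACGTG began 147 bases before the *Abca1* start and was present in 7.15% of all windows. AGATAA occurred 3 times in the *Abcg5* window, and the same 3 sites lay in the overlapping *Abcg8* window, 2 of them in the spacer. A second *Abcg8* window, at the alternative start inside *Abcg5*, held none of the motifs. At least 1 AGATAA was held by 11.2% of all windows, and 3 or more by 0.107%. The DR1 element (the same 6 letters repeated with 1 base between, up to 2 mismatches), in 3.86% of windows, and the LRH-1 site TCAAGGTCA, in 0.423%, had no match in any member's window. The windows of *Npc1l1*, *Nr1h2*, *Nr1h3* and *Mylip* held none of the motifs, which says only that these letters were not in these windows.

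Each comparison with control asked which genes differ between control enteroids and enteroids deficient in 1 of the 2 deacetylases. In Hdac1-deficient enteroids, *Abcg5*, *Abcg8* and *Abca1* rose by more than 2-fold, *Nr1h3*, *Soat2*, *Npc1l1* and *Nr1h2* rose by less, and *Scarb1* fell. Hdac2-deficient enteroids had smaller increases of *Abcg5* and *Abcg8*, a rise of *Soat2* and *Npc1l1*, and no member past 2-fold. The tests were edgeR's quasi-likelihood F tests with Benjamini-Hochberg adjustment over all genes tested. A call needed a change of more than 2-fold with an adjusted p no higher than 0.05. In every comparison 8 members were tested, with control levels of at least 4.89 CPM, and *Mylip* was below edgeR's filter on low counts in each.

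Against control, 3 of the 8 tested members were called higher in Hdac1-deficient enteroids and 0 were called lower, beside 6.87% of all 14246 genes tested called higher and 3.71% called lower. At any size, 7 members rose and 1 fell, beside 32.7% of all genes that rose and 31.9% that fell. The median log2 fold change was 0.68 over the 8 members and -0.00 over all genes tested. Since the members were chosen with earlier results of these data known, these shares and medians are no test of enrichment. DESeq2 called 4 members, *Mylip* in addition. In Hdac2-deficient enteroids 0 members were called with edgeR, beside 5.45% of 14007 genes called higher and 2.84% called lower, and DESeq2 also called 0. At any size, 6 members rose and 1 fell, beside 31.4% and 30.9% of all genes, with a median log2 fold change of 0.29. An unadjusted p under 0.05 was reached by 7 members in that comparison, 0 of them with a change past 2-fold. Without control replicate 2, 4 members passed the adjusted p in place of 7, since *Abca1*, *Nr1h2* and *Scarb1* no longer passed.

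Compared directly in a fit of all 12 libraries, 1 member, *Abca1*, was called higher with Hdac1 than with Hdac2 deficiency and 0 were called lower, beside 2.74% and 2.89% of all 14510 genes. At any size, 5 were higher and 2 were lower, beside 22.3% and 23.7%, and only *Soat2* did not pass. All these comparisons use bulk RNA, in which fewer cells of a type and less RNA per cell cannot be told apart. Hdac1-deficient and Hdac2-deficient enteroids were each set against the same 4 control libraries.

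**Figure D1:**
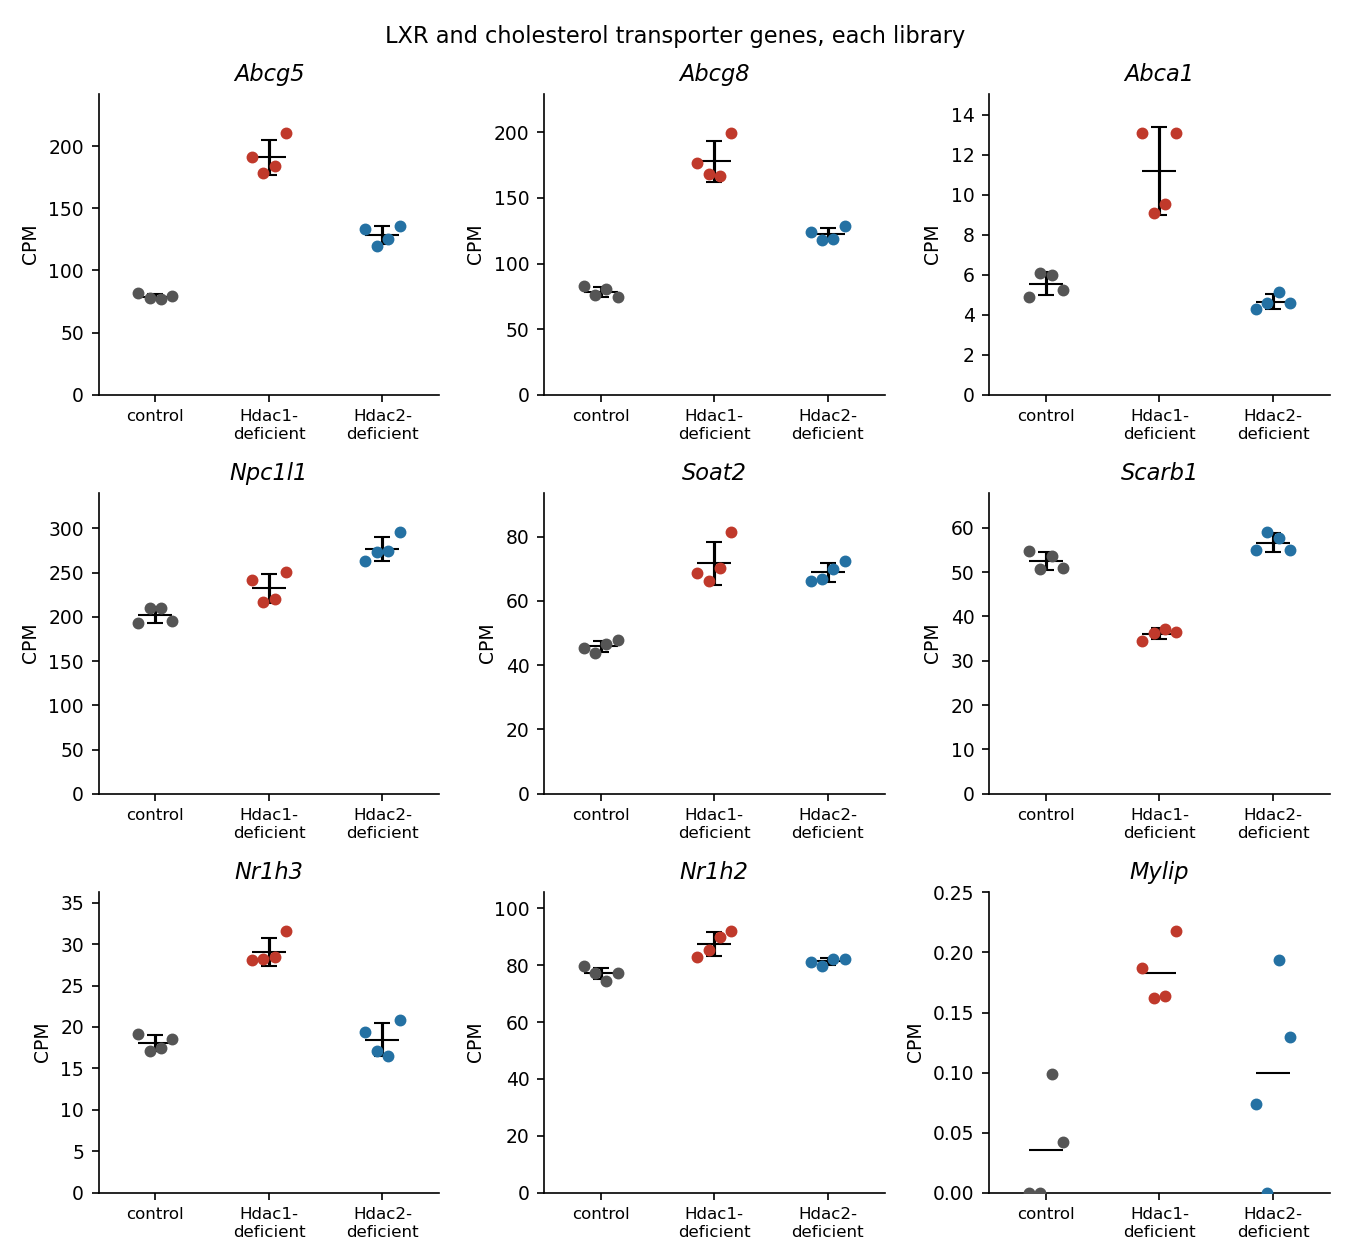
Level of each of the 9 members in CPM (vertical axes start at 0) in every library of control, Hdac1-deficient and Hdac2-deficient enteroids. Each point is 1 library, the horizontal bar is the group mean and the error bar 1 SD (n = 4; no SD is drawn for *Mylip*). *Abcg5* lies at 76.8 to 81.9 CPM in control, 178.1 to 210.8 CPM with Hdac1 deficiency and 119.6 to 135.4 CPM with Hdac2 deficiency, and *Scarb1* is lowest in the Hdac1-deficient group.

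*Abcg5* encodes the partner of ABCG8 in the sterol exporter of the brush border, and lies on chromosome 17 at 84658234 to 84683011 on the minus strand (gene positions are from GENCODE M21 on GRCm38). Its level was 81.9, 77.6, 76.8 and 79.6 CPM in control libraries, 191.6, 178.1, 184.0 and 210.8 CPM in Hdac1-deficient libraries, and 133.3, 119.6, 125.1 and 135.4 CPM in Hdac2-deficient libraries. The 3 groups did not overlap, with Hdac2-deficient libraries between the other two. Its log2 fold change in edgeR was 1.29 (SE 0.04, adjusted p = 7.6e-15) with Hdac1 and 0.71 (SE 0.04, adjusted p = 1e-12) with Hdac2 deficiency. Between the mutants the log2 difference was 0.57 (SE 0.05, adjusted p = 2.3e-09), higher in Hdac1-deficient enteroids.

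*Abcg8*, the other subunit, runs in the opposite direction on chromosome 17 from 84676302 to 84700333. Control libraries held 82.7, 76.1, 80.3 and 74.7 CPM, Hdac1-deficient libraries 177.0, 168.1, 166.5 and 199.7 CPM, and Hdac2-deficient libraries 124.1, 117.9, 118.8 and 128.8 CPM. These groups were again fully apart and in the same order as for *Abcg5*. The edgeR log2 fold change was 1.19 (SE 0.05, adjusted p = 8.9e-12) for Hdac1 and 0.65 (SE 0.04, adjusted p = 3.3e-12) for Hdac2 deficiency, and the mutants differed by 0.54 (SE 0.05, adjusted p = 5.2e-08). In GENCODE an alternative first exon of *Abcg8* lies inside *Abcg5*, and the exons of the 2 genes share 82 bases, which are 3.02% of the exon bases of *Abcg5* and 2.19% of those of *Abcg8*. The library kit kept the strand, but whether the counting used it was not given in the sources used here, so reads in that stretch cannot be assigned with certainty.

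*Abca1* encodes the transporter that loads cholesterol onto apolipoprotein A-I, and lies on chromosome 4 at 53030787 to 53159895 on the minus strand. It was counted at 4.89, 6.09, 5.98 and 5.25 CPM in control, 13.1, 9.07, 9.53 and 13.1 CPM in Hdac1-deficient, and 4.27, 4.61, 5.14 and 4.6 CPM in Hdac2-deficient libraries. All Hdac1-deficient libraries were above all others, and the control and Hdac2-deficient ranges overlapped. With edgeR, *Abca1* rose in Hdac1-deficient enteroids by a log2 fold change of 1.01 (SE 0.13, 95% interval 0.76 to 1.27, adjusted p = 6.5e-06). The estimate lay at the 2-fold limit: it went from 0.93 to 1.10 over the alternatives, and was under the limit without Hdac1-deficient replicate 1 or 4 (0.93 each), control replicate 1 (0.95) or control replicate 4 (0.99). In Hdac2-deficient enteroids *Abca1* fell by 0.25 on the log2 scale (SE 0.10, edgeR adjusted p = 0.038). This no longer passed the adjusted p in 7 of 16 alternatives, among them DESeq2 (adjusted p = 0.099) and all 12 libraries. The remainder left out control replicate 2 or 3 or Hdac2-deficient replicate 1, 2 or 4. The direct difference between the mutants was 1.26 (SE 0.12, adjusted p = 2.6e-08), which was the largest such difference among the members.

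*Npc1l1*, the sterol importer of the brush border and the target of ezetimibe, lies on chromosome 11 at 6211013 to 6230143 on the minus strand. Its levels were 193.1, 209.9, 210.0 and 195.8 CPM in control, 242.2, 216.9, 219.8 and 250.2 CPM in Hdac1-deficient, and 263.1, 273.3, 274.5 and 296.2 CPM in Hdac2-deficient libraries. No group overlapped another, and here the Hdac2-deficient libraries were the highest. The increase in edgeR was 0.21 (SE 0.05, adjusted p = 0.00055) in Hdac1-deficient and 0.46 (SE 0.04, adjusted p = 2.4e-09) in Hdac2-deficient enteroids on the log2 scale. Directly compared, *Npc1l1* was lower with Hdac1 than with Hdac2 deficiency, with a log2 difference of -0.25 (SE 0.05, adjusted p = 0.00016), the opposite order to *Abcg5* and *Abcg8*.

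*Soat2* encodes the acyltransferase that esterifies cholesterol in enterocytes, and lies on chromosome 15 at 102150526 to 102163469 on the plus strand. Control libraries were at 45.3, 43.8, 46.6 and 47.7 CPM, Hdac1-deficient libraries at 68.8, 66.2, 70.1 and 81.5 CPM, and Hdac2-deficient libraries at 66.3, 66.9, 69.8 and 72.5 CPM. Both mutants were above control without overlap, and the mutant ranges overlapped each other. The edgeR log2 fold change was 0.66 (SE 0.05, adjusted p = 4.8e-09) for Hdac1 and 0.60 (SE 0.04, adjusted p = 5e-11) for Hdac2 deficiency. A difference between the mutants was not shown (0.06, 95% interval -0.04 to 0.16, adjusted p = 0.38 in edgeR). The paralogue *Soat1*, the acyltransferase of most other tissues, went the other way: it fell by 0.85 (edgeR SE 0.04, adjusted p = 4.5e-13) and by 0.64 (SE 0.03, adjusted p = 6.5e-13) on the log2 scale in Hdac1-deficient and Hdac2-deficient enteroids.

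*Scarb1* encodes SR-BI, a receptor for high density lipoprotein, and lies on chromosome 5 at 125277087 to 125341094 on the minus strand. It was at 54.7, 50.7, 53.7 and 50.9 CPM in control, 34.4, 36.3, 37.2 and 36.6 CPM in Hdac1-deficient, and 54.9, 59.1, 57.7 and 55.0 CPM in Hdac2-deficient libraries. The Hdac1-deficient libraries were far below the rest, and the Hdac2-deficient ones just above control without overlap. With edgeR, *Scarb1* fell by 0.53 on the log2 scale (SE 0.04, adjusted p = 1.5e-09) with Hdac1 deficiency. With Hdac2 deficiency it rose by 0.12 (SE 0.04, edgeR adjusted p = 0.014). This no longer passed the adjusted p in 4 of 16 alternatives, namely with library size alone and without control replicate 2 or 4 or Hdac2-deficient replicate 2. The mutants differed by -0.65 (SE 0.04, adjusted p = 9.2e-13).

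*Nr1h3*, the gene of LXRα, lies on chromosome 2 at 91184061 to 91202834 on the minus strand, where a transcript named *Gm13783* on the same strand shares 34 exon bases with it (1.35% of its exon bases). Control libraries held 19.2, 17.1, 17.5 and 18.6 CPM, Hdac1-deficient libraries 28.1, 28.2, 28.4 and 31.6 CPM, and Hdac2-deficient libraries 19.4, 17.1, 16.5 and 20.8 CPM. The Hdac1-deficient libraries stood above all others, and the Hdac2-deficient range enclosed the control range. In edgeR *Nr1h3* rose by a log2 fold change of 0.69 (SE 0.06, adjusted p = 1.1e-09) with Hdac1 deficiency. With Hdac2 deficiency the value was 0.04 (95% interval -0.09 to 0.17, adjusted p = 0.64). The difference between the mutants, tested directly, was 0.65 (SE 0.06, adjusted p = 3e-09).

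*Nr1h2*, the gene of LXRβ, lies on chromosome 7 at 44549616 to 44553951 on the minus strand. It was at 79.6, 77.1, 74.5 and 77.2 CPM in control, 82.8, 85.4, 90.0 and 92.1 CPM in Hdac1-deficient, and 81.0, 79.8, 82.3 and 82.3 CPM in Hdac2-deficient libraries. The ranges lay close together without overlap. Its edgeR log2 fold change was 0.20 (SE 0.04, adjusted p = 0.00022) with Hdac1 deficiency. With Hdac2 deficiency it was 0.09 (SE 0.03, adjusted p = 0.032), which was lost in 10 of 16 alternatives, among them DESeq2 and leaving out control replicate 2, 3 or 4 or Hdac2-deficient replicate 3 or 4. The mutants differed by 0.11 (SE 0.04, adjusted p = 0.018), which was lost in 3 of 16, without Hdac1-deficient replicate 3 or 4 or Hdac2-deficient replicate 2.

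*Mylip* encodes the ubiquitin ligase IDOL and lies on chromosome 13 at 45389742 to 45412022 on the plus strand. Its counts were 0, 0, 3 and 1 in control, 5, 5, 5 and 6 in Hdac1-deficient, and 2, 0, 4 and 3 in Hdac2-deficient libraries. As CPM, the Hdac1-deficient libraries were above all control libraries, and the Hdac2-deficient range overlapped both. Control counts were at or under the floor of 3 counts and the gene was below the filter, so the main fit gave no fold change.

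**Figure D2:**
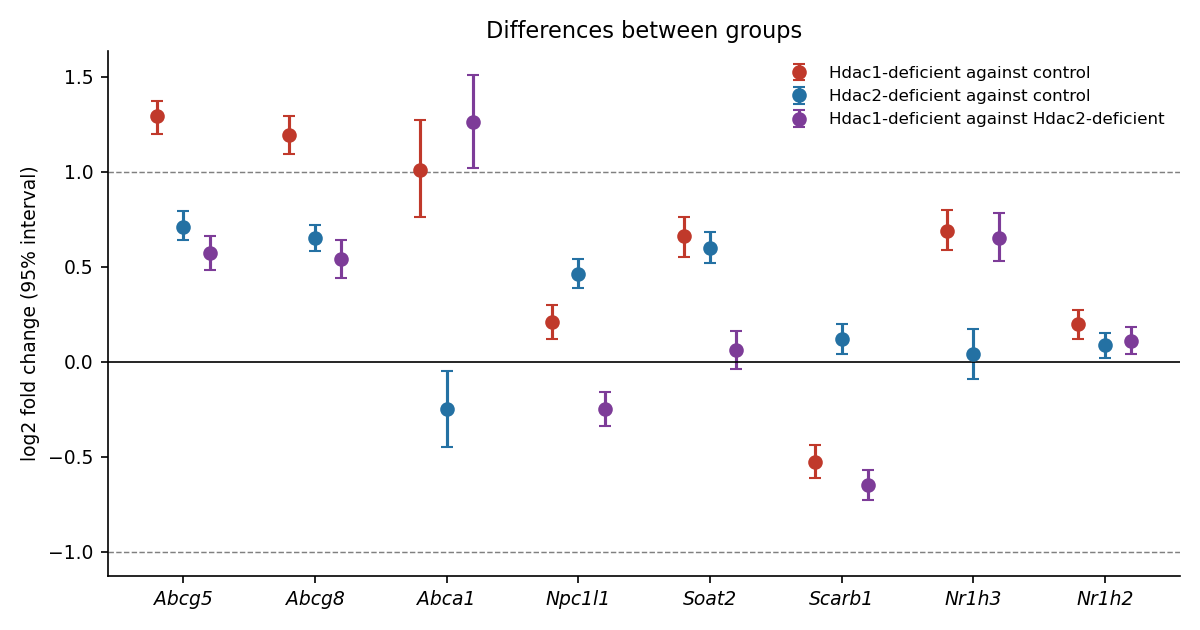
Log2 fold change of the 8 tested members with 95% intervals from edgeR, for each mutant against control and for the mutants against each other. Dashed lines mark a 2-fold change. *Abcg5*, *Abcg8* and *Abca1* have Hdac1 values of 1.29, 1.19 and 1.01, *Scarb1* is at -0.53 with Hdac1 and 0.12 with Hdac2 deficiency, and the interval of *Nr1h3* with Hdac2 deficiency includes 0.

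Levels of different genes were set against each other as CPM per kb of exon, with the length taken over all annotated exons of a gene. The order between genes rests on this length, since the transcripts in use were not determined. In control enteroids the order was *Npc1l1* (45.3), *Abcg5* (29.1), *Nr1h2* (23), *Abcg8* (20.9), *Soat2* (20.7), *Nr1h3* (7.2), *Scarb1* (6.18), *Abca1* (0.536) and *Mylip* (0.0109 CPM per kb), and among neighbours only the ranges of *Abcg8* and *Soat2* overlapped. In Hdac1-deficient enteroids *Abcg5* (70.5 CPM per kb) stood first, above *Npc1l1* (52.0) and *Abcg8* (47.4), whose ranges overlapped. In Hdac2-deficient enteroids *Npc1l1* (62.0 CPM per kb) was again above *Abcg5* (47.3) and *Abcg8* (32.7), the last overlapping *Soat2* (31.1). *Nr1h3* (7.33) and *Scarb1* (6.67 CPM per kb) also overlapped there, while in Hdac1-deficient enteroids *Nr1h3* (11.6) was well above *Scarb1* (4.25).

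**Figure D3:**
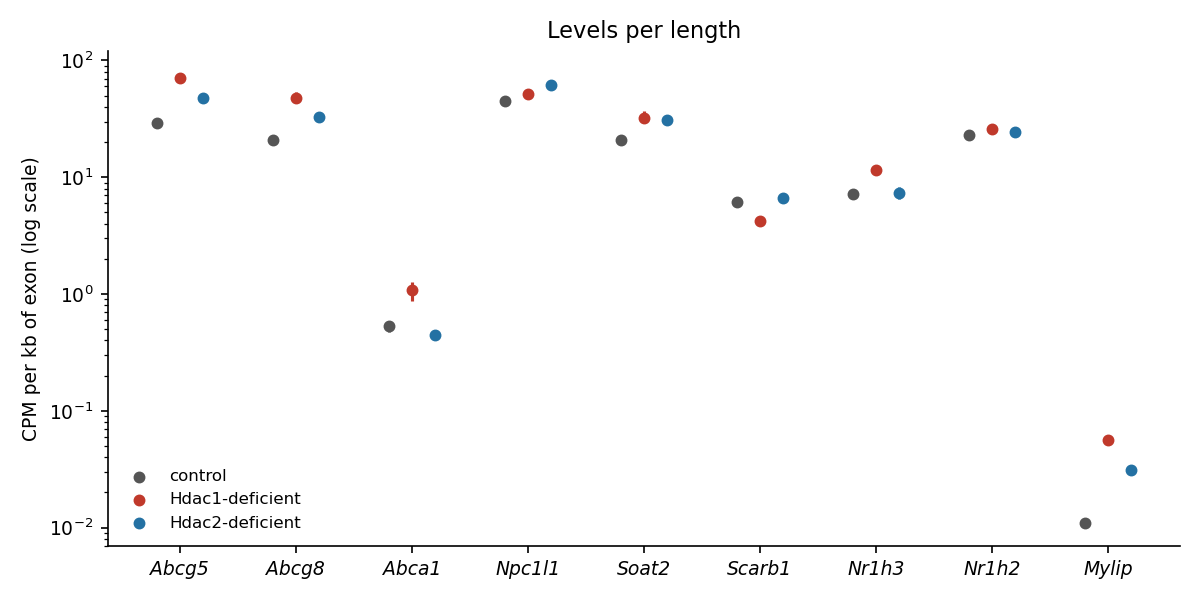
Mean level of each member in CPM per kb of exon on a log scale, for the 3 groups. Vertical lines span the lowest to the highest of 4 libraries, are mostly shorter than the points and are not drawn for *Mylip*. *Npc1l1* leads in control (45.3) and Hdac2-deficient (62.0) and *Abcg5* in Hdac1-deficient enteroids (70.5).

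Ratios within a library describe the balance of paired members, with no test. The ratio of *Abcg5* to *Abcg8* CPM was 1.01 ± 0.0462 (SD, n = 4) in control, 1.08 ± 0.0230 with Hdac1 deficiency and 1.05 ± 0.0249 with Hdac2 deficiency, with both subunits near equal CPM in every group. *Npc1l1* stood to *Abcg5* CPM at 2.56 ± 0.184 in control, 1.22 ± 0.0346 with Hdac1 deficiency and 2.16 ± 0.132 with Hdac2 deficiency. This is a ratio of RNA, not of transport, and is not scaled to length. Per length, *Abcg5* was above *Npc1l1* with Hdac1 deficiency (70.5 against 52.0 CPM per kb) and below it in the other groups. *Nr1h3* was 0.235 ± 0.00899 of *Nr1h2* CPM in control, 0.332 ± 0.0119 with Hdac1 deficiency and 0.227 ± 0.0236 with Hdac2 deficiency. For *Soat2* to *Soat1* the values were 0.291 ± 0.00933, 0.835 ± 0.139 and 0.686 ± 0.0574 in the same order. Per length, *Soat2* was above *Soat1* in every group, at 20.7 against 16.1 CPM per kb in control. The values were 32.4 against 8.83 with Hdac1 deficiency and 31.1 against 10.3 with Hdac2 deficiency. By mean CPM the order in control was the reverse (45.8 for *Soat2* against 157.7 for *Soat1*), so the order per length rests on the exon lengths.

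**Figure D4:**
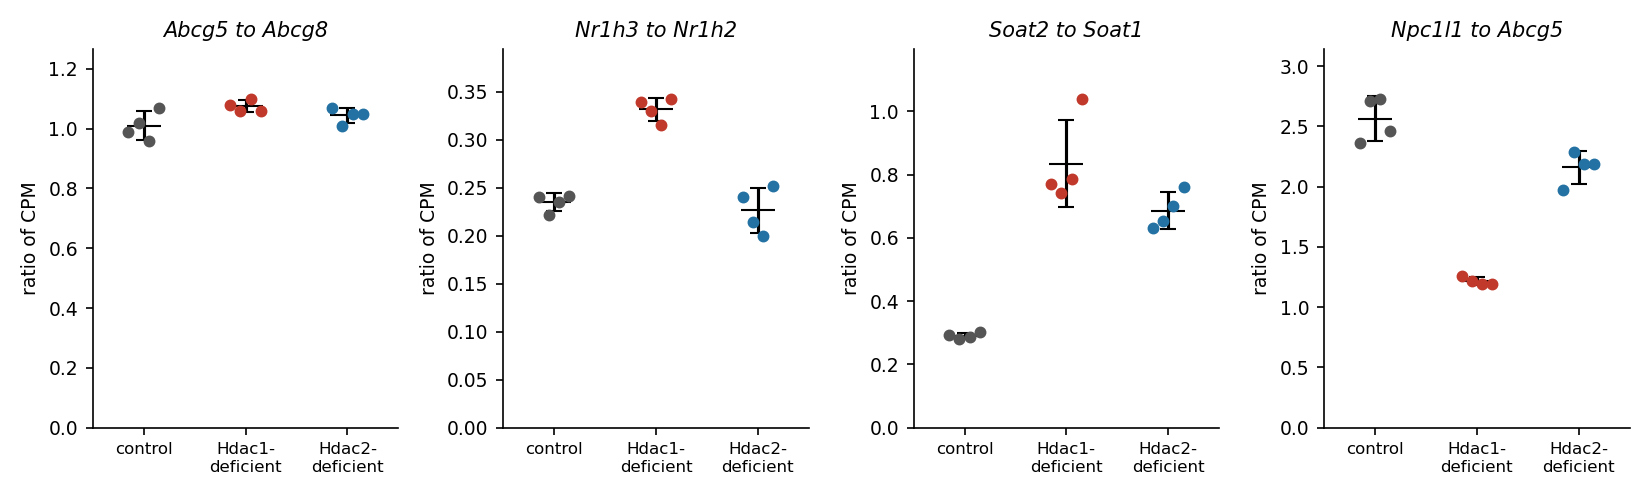
Ratio of CPM within each library for *Abcg5* to *Abcg8*, *Nr1h3* to *Nr1h2*, *Soat2* to *Soat1* and *Npc1l1* to *Abcg5*, with group mean and SD (n = 4) and axes from 0. *Npc1l1* to *Abcg5* averages 2.56 in control and 1.22 in Hdac1-deficient libraries, while *Abcg5* to *Abcg8* stays between 1.01 and 1.08 in the group means.

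The other known LXR target genes did not move as one list. Of 14 tested in Hdac1-deficient enteroids, 6 rose and 4 fell (2 rose by more than 2-fold, median log2 fold change 0.10). In Hdac2-deficient enteroids 13 were tested, of which 7 rose and 3 fell (2 by more than 2-fold upward, median 0.15). Over all genes tested, 32.7% rose and 31.9% fell with Hdac1 deficiency, and 31.4% rose and 30.9% fell with Hdac2 deficiency. Those called higher were 6.87% and 5.45%, and those called lower 3.71% and 2.84%. The counts of the lists below stand beside the same shares. *Pnpla3*, a lipid droplet hydrolase, was at 1.16 to 1.44 CPM in control, 3.78 to 5.02 CPM with Hdac1 deficiency and 3.02 to 4.02 CPM with Hdac2 deficiency, and rose by 1.80 (SE 0.14) and 1.38 (SE 0.15) on the log2 scale. *Mlxipl*, the gene of the carbohydrate-responsive factor ChREBP, rose on the log2 scale by 1.26 (SE 0.09) with Hdac1 and 0.57 (SE 0.06) with Hdac2 deficiency. *Smpdl3a*, a phosphodiesterase gene, had the reverse order, with 19.6 to 21.1 CPM in control, 25 to 29.1 CPM with Hdac1 deficiency and 75.6 to 85.2 CPM with Hdac2 deficiency. Its direct difference was -1.54 (SE 0.05, edgeR adjusted p = 1.6e-19). *Srebf1*, the gene of SREBP1, had a log2 fold change of 0.13 (adjusted p = 0.00096) with Hdac1 deficiency and 0.04 (adjusted p = 0.27) with Hdac2 deficiency in edgeR. *Scd2*, a fatty acid desaturase gene, fell by 0.75 and by 0.39 on the log2 scale with Hdac1 and Hdac2 deficiency.

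Among 11 tested LXR partners and cofactors, 5 rose and 2 fell with Hdac1 deficiency (median 0.09), and 4 rose and 2 fell with Hdac2 deficiency (median 0.08). *Rxra*, the gene of the LXR partner RXRα, rose by 0.55 (SE 0.03) and 0.37 (SE 0.03) on the log2 scale. *Nr0b2*, which encodes the corepressor SHP, was the only one past 2-fold in either comparison with control. It was at 1.81 to 2.61 CPM in control, 3.34 to 5.02 CPM with Hdac1 deficiency and 0.368 to 0.664 CPM with Hdac2 deficiency. These correspond to log2 fold changes of 0.98 (SE 0.14) and -2.04 (SE 0.22), and the direct difference was 3.02 (SE 0.20, edgeR adjusted p = 1.3e-12).

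Oxysterols, the ligands of LXR, were represented by 5 tested enzyme genes, of which 3 rose and 1 fell in each mutant (medians 0.26 and 0.22). *Sult2b1*, a sterol sulfotransferase, rose on the log2 scale by 1.00 (SE 0.06, at the 2-fold limit) with Hdac1 and 1.39 (SE 0.06) with Hdac2 deficiency. *Hsd3b7*, an enzyme of bile acid synthesis, rose by 1.61 (SE 0.13) and 0.83 (SE 0.15) on the log2 scale. *Cyp27a1*, a mitochondrial sterol hydroxylase, went from 11.7 to 14.1 CPM in control to 5.25 to 6.21 CPM in Hdac1-deficient and 8.59 to 11 CPM in Hdac2-deficient libraries. It fell by 1.12 (SE 0.08) and by 0.42 (SE 0.08) on the log2 scale. *Cyp7a1*, *Ch25h* and *Cyp7b1* were not listed in either table.

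Genes of the SREBP2 pathway, which makes cholesterol and is held down when sterols are plentiful, showed small changes in opposite balance in the mutants. Of 22 tested, 6 rose and 12 fell with Hdac1 deficiency (median -0.10), and 18 rose and 1 fell with Hdac2 deficiency (median 0.25). In the direct comparison 21 of 22 were lower with Hdac1 than with Hdac2 deficiency and 1, *Insig2*, was higher (median -0.34), beside the 23.7% of all genes that were lower. None passed 2-fold in edgeR or DESeq2 in any comparison, with 19, 20 and 22 at an unadjusted edgeR p under 0.05. *Cyp51*, the lanosterol demethylase, and 3 more genes were named after their values were seen. *Cyp51* was at 666.6 to 686.1 CPM in control, 562.6 to 580.5 CPM with Hdac1 deficiency and 858.5 to 893.0 CPM with Hdac2 deficiency. *Insig1*, which retains SREBP in the endoplasmic reticulum, was at 791.3 to 819.9, 733.2 to 810.6 and 1149 to 1187 CPM, so its control and Hdac1-deficient ranges overlapped. The direct log2 differences were -0.62 for *Cyp51*, -0.63 for *Insig1*, -0.57 for *Mvd* and -0.56 for *Sqle*, the last 2 being enzymes of the mevalonate and squalene steps.

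**Figure D5:**
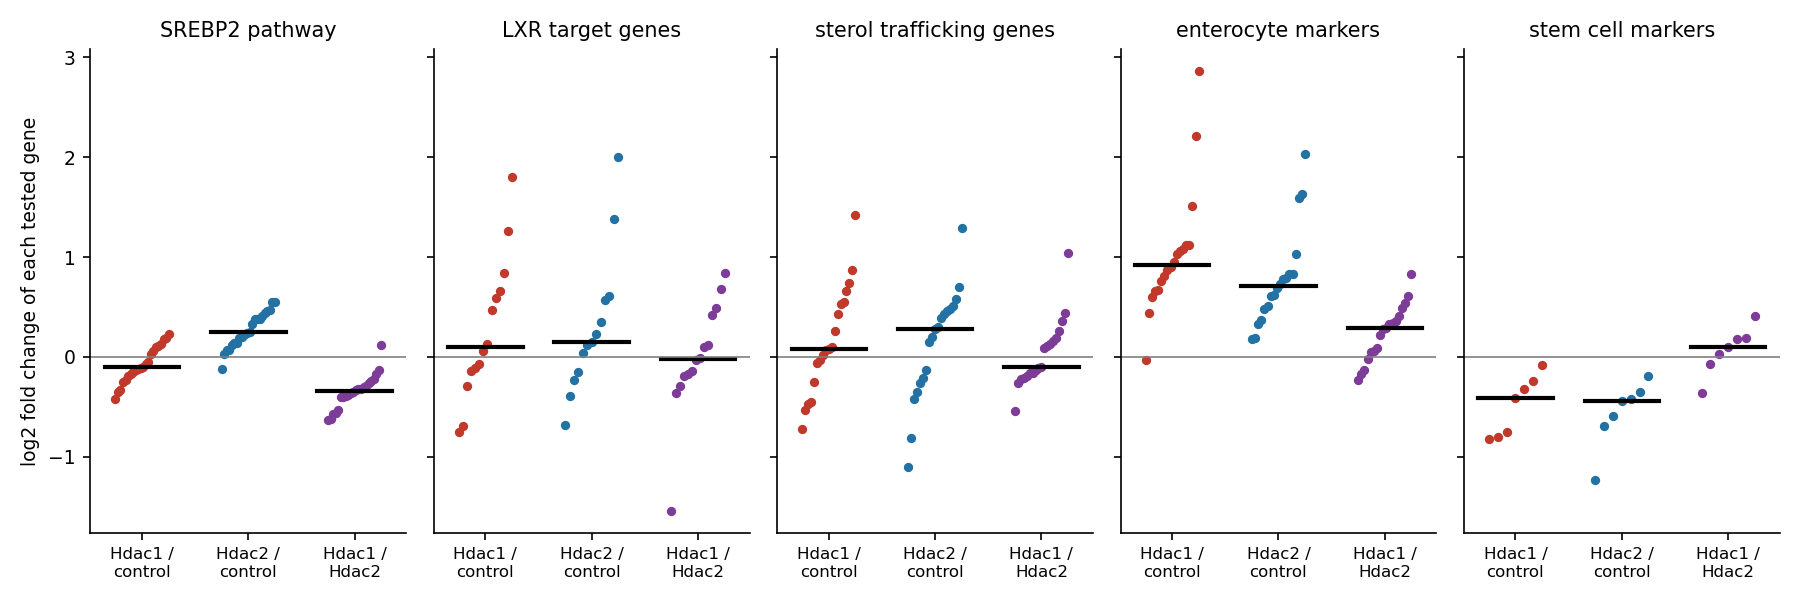
Log2 fold change of each tested gene of 5 lists for Hdac1-deficient against control, Hdac2-deficient against control and Hdac1-deficient against Hdac2-deficient enteroids. Each point is 1 gene in order of its value and the black bar is the list's median. For the SREBP2 pathway the medians are -0.10, 0.25 and -0.34, and for enterocyte markers 0.93, 0.71 and 0.28.

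Of 19 tested sterol trafficking genes, 10 rose and 5 fell with Hdac1 deficiency (median 0.08), and 12 rose and 7 fell with Hdac2 deficiency (median 0.28). *Gramd1a*, which moves sterol from the plasma membrane to the endoplasmic reticulum, rose by 1.42 (SE 0.15) and 1.29 (SE 0.13) on the log2 scale. *Flot2*, a flotillin gene, fell in Hdac2-deficient enteroids, from 18.5 to 20.2 CPM in control to 8.80 to 9.41 CPM, and was at 17.8 to 18.9 CPM with Hdac1 deficiency. *Vldlr*, the receptor gene for very low density lipoprotein, fell by 2.08 (SE 0.06) and by 0.93 (SE 0.07) on the log2 scale, and *Lrp1*, an endocytic receptor gene, rose by 1.10 (SE 0.15) and 0.93 (SE 0.13). Among 10 tested paralogues of the members, 6 rose and 2 fell with Hdac1 and 7 rose and 1 fell with Hdac2 deficiency (medians 0.53 and 0.49). *Cd36*, a fatty acid receptor of the same family as *Scarb1*, rose by 0.85 (SE 0.05) and 1.17 (SE 0.05) on the log2 scale, while *Scarb1* fell in Hdac1-deficient enteroids.

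Absorptive cells carry most of the transporters, and their markers rose in both mutants. Of the 8 tested members, 7 rose and *Scarb1* fell with Hdac1 deficiency. With Hdac2 deficiency 6 rose, *Abca1* fell and *Nr1h3* did not pass. The changes of *Abca1*, *Nr1h2* and *Scarb1* with Hdac2 deficiency were each lost in some alternatives. Of 18 enterocyte markers such as *Alpi*, *Sis* and *Apob*, 17 rose with Hdac1 deficiency (8 by more than 2-fold, median 0.93) and 18 rose with Hdac2 deficiency (4 by more than 2-fold, median 0.71). In the direct comparison 11 were higher and 3 lower in Hdac1-deficient enteroids (median 0.28). Their summed level was 9161 to 9604 CPM in control, 15317 to 18610 CPM with Hdac1 deficiency and 13937 to 15507 CPM with Hdac2 deficiency. The part of the enterocyte markers in the members' changes was not tested. Stem cell markers (7, with *Lgr5* and *Olfm4*) summed to 4729 to 4857 CPM in control, 2864 to 3316 CPM with Hdac1 deficiency and 2577 to 2806 CPM with Hdac2 deficiency, with 6 and 7 of them lower. Macrophage markers, whose cells are rich in *Abca1* and *Nr1h3*, summed to 5.5 to 5.89, 6.83 to 8.24 and 8.44 to 9.57 CPM in control, Hdac1-deficient and Hdac2-deficient libraries. *Adgre1*, *Cx3cr1* and *Fcgr1*, which define these cells, were not listed. *Ptprc* had means of 0.0375, 0.0704 and 0.0837 CPM in the same order, under the floor, and at most 0.173 CPM in any library. Within the list *Csf1r* went against the sum, at 0.411 ± 0.197, 0.73 ± 0.0635 and 0.146 ± 0.0773 CPM (SD, n = 4) in the same order. It was higher with Hdac1 than with Hdac2 deficiency by a log2 difference of 2.29 (SE 0.39, edgeR adjusted p = 2.8e-05). Its Hdac2-deficient libraries, at 0.0391 to 0.217 CPM, lay around the floor of 3 counts, so the size of that difference is uncertain. Of 4 macrophage markers tested between the mutants, 1 was higher and 2 were lower with Hdac1 deficiency. *Cd68*, *Itgam* and *Mrc1* had lower means with Hdac1 than with Hdac2 deficiency (0.948 against 1.5, 2.03 against 2.68 and 3.67 against 4.39 CPM). The part of these markers in the values of *Abca1* and *Nr1h3* was not tested.

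The genes most like each member were ranked by Pearson's r of log2 CPM over the 12 libraries among 11409 genes. These libraries form 3 groups and share their depth and scaling, so r mostly follows the group means and is given as a description. For *Abcg8* the nearest gene was *Abcg5* (r = 0.997), followed by *Cndp2* and *Wdtc1* (0.995 each). *Abcg5* was nearest to *Cndp2*, *Cds1* and *Tmem86a* (0.997 each), with *Abcg8* the next in order. The others were *D1Ertd622e* (0.978), *Dcaf7* and *Sorl1* for *Abca1*, *Sh3d19* (0.978), *Heph* and *Abcc3* for *Npc1l1*, and *Adamtsl5* (0.996), *Stk38* and *Ugt1a6a* for *Soat2*. *Nr1h3* was nearest to *Cda* (0.984), *Dnah2* and *Cyp2u1*, *Nr1h2* to *Sh2b1* (0.957), *Tmub2* and *Asb6*, and *Scarb1* to *Prss32*, *Pparg* and *Rnf186* (0.992 each). Between members, *Abca1* had r = 0.877 with *Nr1h3* and -0.954 with *Scarb1*.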

How the data were processed

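Poly(A) RNA from 12 enteroid cultures was made into directional libraries and sequenced as paired reads of 100 bases. The authors aligned reads to GRCm38 with STAR (version 2.4.0f1 in the submitters' processing notes) and deposited whole-number counts per gene, without normalization, in 1 table per mutant with the same 4 control libraries. Genes summing to at least 10 counts over the 8 libraries are listed (18676 and 18225, 17972 in both). The counting program was not given in the sources used here. The 16 columns of normalized per-library values, and the authors' fold changes, p-values and average log CPM, were not used.

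Counts were tested in edgeR 4.0.16 (R 4.3.3) with TMM factors, filterByExpr and robust quasi-likelihood F tests, adjusted over all genes tested. Each mutant was compared with control over 8 libraries, and the mutants with each other over all 12. CPM used TMM factors of 0.9809 to 1.02. The common biological coefficient of variation was 0.0425, 0.0384 and 0.0394. Positions and exon lengths came from GENCODE M21. On simulated counts over 18676 genes for the Hdac1 comparison and 18225 for the Hdac2 comparison, 200 of 200 changed genes were recovered in each. False calls were 0 in each. Recovery of genes that differ by less than 2-fold, or that have few counts, was not tested.

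Members and lists were chosen with earlier results of these data known. Genes named outside the members passed both thresholds in a mutant (up to 4 per list and mutant), check the labels, are needed for a ratio, or rank among the 3 most like a member. *Srebf1*, *Scd2*, *Rxra* and the SREBP2 pathway genes were named after their values were seen. Marker genes are named as examples of their lists. Those in the closing section and *Csf1r*, *Cd68*, *Itgam*, *Mrc1* and *Ptprc* were named after their values were seen. Alternatives were DESeq2 1.42.0, RLE and upper-quartile factors, library size alone, no filter, a mean of at least 10 counts, a replicate block, all 12 libraries or the mutants alone, an adjusted p of 0.01, a 1.5-fold limit, and leaving out each library. Same-numbered libraries of different groups had correlations of their deviations between -0.0455 and 0.0913. The counts of a further gene list are not reported here.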

Additional observations from a re-analysis of the deposited data

Results flagged for a closer look

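*Nr1h3* in Hdac1-deficient replicate 4 was at 31.6 CPM, apart from the other 3 libraries of its group at 28.1 to 28.4 CPM. The gap to the nearest library was 0.904 of the group's range, above Dixon's 95% critical value for 4 samples. This was 1 of 27 groups checked, and chance flags about 1 in 20.

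For 7 members the effect of Hdac1 deficiency differed from that of Hdac2 deficiency by edgeR's test over all 12 libraries. Hdac1-deficient minus Hdac2-deficient log2 values were 0.57 for *Abcg5*, 0.54 for *Abcg8*, 1.26 for *Abca1*, 0.65 for *Nr1h3*, 0.11 for *Nr1h2*, -0.25 for *Npc1l1* and -0.65 for *Scarb1*. The difference of *Nr1h2* no longer passed without Hdac1-deficient replicate 3 or 4 or Hdac2-deficient replicate 2.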

How the results depend on the processing

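Over the alternative fits, at an adjusted p of 0.05, the members' log2 fold changes kept their side of the adjusted p in 360 cases. They no longer passed it in 24, and no value past it in the main fit changed sign. The values that did not pass in the main fit changed sign once each. *Nr1h3* with Hdac2 deficiency was -0.03 without Hdac2-deficient replicate 4, and *Soat2* between the mutants was -0.01 without Hdac1-deficient replicate 4. The values that no longer passed were *Abca1* (-0.32 to -0.21), *Nr1h2* (0.06 to 0.10) and *Scarb1* (0.09 to 0.14) with Hdac2 deficiency and *Nr1h2* between the mutants (0.08 to 0.14). The cause was not tested. The call of *Abca1* with Hdac1 deficiency was lost in leave-one-out fits, where the value went down to 0.93 but still passed the adjusted p. With a 1.5-fold limit, 5 members were called with Hdac1 deficiency, 3 with Hdac2 deficiency and 3 between the mutants, by construction. At an adjusted p of 0.01 in edgeR, *Abca1* (0.038), *Nr1h2* (0.032) and *Scarb1* (0.014) no longer passed with Hdac2 deficiency. *Nr1h2* between the mutants (0.018) no longer passed either. With each library left out in turn, members called were 2 to 3, 0 to 0 and 1 to 1, and members past the adjusted p were 8 to 8, 4 to 7 and 6 to 7, for Hdac1, Hdac2 and the mutants compared. The 4 came without control replicate 2. The replicate number as a block gave 3, 0 and 1 members called and 8, 7 and 7 past the adjusted p, and changed no member's call. *Mylip* was tested only in DESeq2 (log2 fold change 2.37, adjusted p = 0.03, with Hdac1 deficiency, and 1.46, adjusted p = 0.35, with Hdac2 deficiency) and in edgeR without the filter (2.22, adjusted p = 0.011, and 1.29, adjusted p = 0.27). These fitted values of *Mylip* rest on 0 to 6 counts per library and are no bounds. Without the filter edgeR also called 4 members with Hdac1 deficiency. Over the pathway lists and enterocyte markers 66 counts stayed within 1.5 times and 6 moved, each in DESeq2 and without the filter, to 2 sterol trafficking genes with Hdac1 deficiency, and to 2 LXR target genes and 1 paralogue between the mutants. DESeq2 called 2 macrophage markers with Hdac2 deficiency, and edgeR 1.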

Other observations

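Other cell types of the enteroids had their own pattern beside the sterol genes. Goblet cell markers rose in 7 of 7 cases with Hdac2 deficiency, while with Hdac1 deficiency 3 of 7 rose, with *Clca1* (log2 fold change 1.22) and *Zg16* (1.36) past 2-fold, and 2 fell, *Tff3* (-0.40) and *Spink4* (-0.38). Of 6 Paneth cell markers, 5 rose with Hdac2 deficiency, while with Hdac1 deficiency *Lyz1* (1.26) and *Itln1* (0.50) rose, *Ang4* (-0.63) fell and 3 did not pass. Goblet cell markers summed to 1890 to 2110 CPM in control, 1938 to 2078 CPM with Hdac1 deficiency and 2996 to 3223 CPM with Hdac2 deficiency, Paneth cell markers to 2121 to 2481, 3105 to 3368 and 3383 to 3530 CPM, enteroendocrine markers to 213.6 to 227.0, 254.8 to 287.8 and 261.4 to 285.0 CPM, and tuft markers to 5.49 to 6.47, 5.6 to 7.81 and 3.69 to 4.73 CPM. Fibroblast markers were at 0.756 to 1.27, 1.05 to 1.59 and 0.954 to 1.65 CPM in all, with *Col1a2*, *Col3a1*, *Dcn* and *Lum* not listed. Endothelial markers were at 0.363 to 0.77, 0.525 to 0.909 and 0.679 to 1.05 CPM, with *Cdh5* and *Kdr* not listed. Hepatocyte markers were at 2.34 to 3.82, 4.98 to 6.51 and 4.51 to 5.19 CPM, with *Ahsg*, *Fgb* and *Serpina1a* not listed.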
